A study of Arabidopsis thaliana with 8 samples.

Results

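The 38 genes described here make up the heat shock response machinery that works mainly in the cytosol and nucleus of Arabidopsis thaliana: 12 genes for heat shock factors (HSFs), the disaggregase gene HSP101, 4 HSP90 and 5 HSP70 genes, 8 genes for small heat shock proteins, 2 genes for J-proteins, 3 HOP genes, and ROF1, MBF1C and BAG6. They were chosen by gene identifier, and all 38 were found among the 27655 loci of the expression table. The label "cytosolic" does not cover every product, since HSP21 acts in chloroplasts, ATHSP22.0 in the endoplasmic reticulum and HSP23.6-MITO in mitochondria. RNA-seq was made from total RNA of shoot apices in 4 groups of 2 libraries each, 8 in all. They were wild-type plants at day 10, wild-type plants at day 16, and at the same ages plants carrying pFD::amiR-PECT1, an artificial microRNA against PECT1 driven by the FD promoter (the knockdown). All plants grew on MS plates in short days at 23 °C and were sampled at ZT 8, which is 8 hours after lights on, so no group received a heat treatment. PECT1 encodes an enzyme of phosphatidylethanolamine synthesis. The FD promoter is active in the cells of the shoot meristem, a minor part of an apex sample, so a change in those cells is diluted by the others. Nothing in the labels ties replicates to separate plantings, so every p-value reflects the spread among these libraries, which may be technical.

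In plants at ordinary temperatures, HSP70 and HSP90 chaperones bind the class A1 HSFs and hold them inactive. When unfolded proteins draw the chaperones away, the HSFs bind heat shock elements in DNA and switch on genes for further HSFs, small heat shock proteins, HSP101 and the inducible HSP70 and HSP90 forms. Constitutive HSP70 and HSP90 proteins meanwhile fold newly made proteins with the help of J-proteins, which deliver substrates to HSP70, and of HOP proteins, which bridge HSP70 and HSP90. J3 is also known in Arabidopsis as a promoter of flowering that interacts with the repressor SVP at the shoot apex.

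The DNA that links the heat shock factors to the chaperone genes was searched in the RefSeq sequence of assembly TAIR10.1. The heat shock element was taken as 3 alternating blocks, GAANNTTCNNGAA or its reverse complement TTCNNGAANNTTC, on either strand. In the 500 bases before the first start codon, a window added after the shorter one had been searched, 13 of 38 members (34.2%) held this element, against 329 of 27443 loci (1.2%). In the 250 bases before the annotated gene start it was found at 3 of 38 members (7.89%), HSFA2, HSFA7A and HSP17.4, against 106 of 27443 loci (0.386%). The shorter 2-block forms GAANNTTC and TTCNNGAA, which are also contained in the longer one, stood in those 250 bases at 10 of 38 members (26.3%), against 16.1% of all loci. Below are 29-base sites of the HSP70 genes that carry it, 3 of which differed several-fold between replicates, and of one HSP90, several HSF and one small heat shock protein gene. Each reads 5′ to 3′ on the strand of its gene, with the element in capitals.
HSC70-1, chr5:556554-556582, minus strand: caaccatcGAACATTCTCGAAacatttta
Hsp70-2, chr5:552686-552714, minus strand: taattacaGAACATTCTGGAAactcaagt
AT3G09440, chr3:2905765-2905793, minus strand: gagccatcGAACCTTCTCGAAactcgagt
HSP70, chr3:3993846-3993874, minus strand: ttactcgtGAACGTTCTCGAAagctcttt
HSP90.1, chr5:21352254-21352282, plus strand: aacgaaaaGAACTTTCTGGAAttcgtttg
HSFB2A, chr5:24916058-24916086, plus strand: ctccatagGAAGTTTCTTGAAgcctaaaa
AT-HSFB2B, chr4:7042670-7042698, plus strand: tcctctcaGAACATTCTGGAActtcacaa
HSFA2, chr2:11135528-11135556, plus strand: ttagtaacGAAGTTTCTGGAAcattgtct
HSP17.4, chr3:16984865-16984893, minus strand: agaaacctGAAATTTCAAGAAacttgcag
The sites of HSC70-1, Hsp70-2, AT3G09440, HSP70, HSFB2A and AT-HSFB2B lie inside the annotated gene and before the start codon, and those of HSP90.1, HSFA2 and HSP17.4 lie before the annotated gene start. The other members with the element before the start codon were HSFA7A, HSP18.2, ATHSP22.0 and Hop3. HSFA7A, a factor gene whose level differed widely between libraries at day 10, carries the same 13 letters at 2 places in the 250 bases before its annotated start.
HSFA7A, chr3:19264891-19265140, plus strand: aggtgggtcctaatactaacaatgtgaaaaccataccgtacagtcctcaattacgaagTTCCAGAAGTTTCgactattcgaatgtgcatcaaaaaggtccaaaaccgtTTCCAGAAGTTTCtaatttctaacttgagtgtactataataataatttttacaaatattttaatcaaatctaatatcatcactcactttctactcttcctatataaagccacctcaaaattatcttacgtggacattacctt
A match is a run of letters and does not show that a factor binds there.

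Sequencing depth, estimated from the smallest steps between low values, was 15460000 to 18160000 reads per library. Replicates correlated at Pearson r of 0.968 to 0.978 across the tested genes. The targeted gene PECT1 stood at 40.7 and 39.2 RPKM in day-10 wild type, 35.3 and 37.1 RPKM in day-10 knockdown, 40.4 and 41.3 RPKM in day-16 wild type and 34.4 and 37.03 RPKM in day-16 knockdown libraries. Its libraries do not overlap between genotypes at either age, but its mean log2 difference of -0.16 ± 0.103 (SE, limma, adjusted p = 0.54) did not pass the test. Every knockdown library lay below every wild-type library, an order that 3.42% of all loci showed. After median-of-ratios scaling of the libraries, the genotypes overlapped at day 16. Among markers of the apex, STM lay between 6.31 and 17.5 RPKM and KNAT1 between 6.20 and 10.6 RPKM, while CLV3 and WUS, genes of a few meristem cells, lay between 0 and 0.72 RPKM. FD itself lay between 1.05 and 2.57 RPKM. Leaf mesophyll markers (7 genes) summed to 15939 to 24278 RPKM, so leaf tissue was well represented in every library. Because these are bulk samples, fewer cells of a type and less RNA per cell cannot be told apart.

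The levels of the 38 genes ran over several orders of magnitude. RPKM, reads scaled to the size of the library and per kilobase of transcript, takes out length and so allows levels to be compared between genes. As means over the 8 libraries, 2 members stood at 100 RPKM or more, 9 between 10 and 100, 19 between 1 and 10, and 8 below 1. The top 2 were HSC70-1, a constitutive cytosolic HSP70, with a mean of 1033 RPKM, and J3, with 108 RPKM. HSP81-2 and HSP81-3, constitutive HSP90 genes, followed with 90.04 and 71.96 RPKM. HSP81-2 and HSP81-3 overlapped in their ranges over libraries, from 68.6 to 122 RPKM and from 48.3 to 130.4 RPKM. At the bottom were the genes known for the strongest heat induction. HSFA2 lay between 0 and 0.16 RPKM, HSP21 was above 0 in 1 library only, at 0.12 RPKM, and HSP17.6II was at 0 in all 8. The 13 members with an element before the start codon were found at both ends of this order, from ATHSP22.0 with a mean of 0.048 RPKM to HSC70-1. Their median mean level was 3.10 RPKM, and that of the 25 members without it was 3.69 RPKM.

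**Figure D1:**
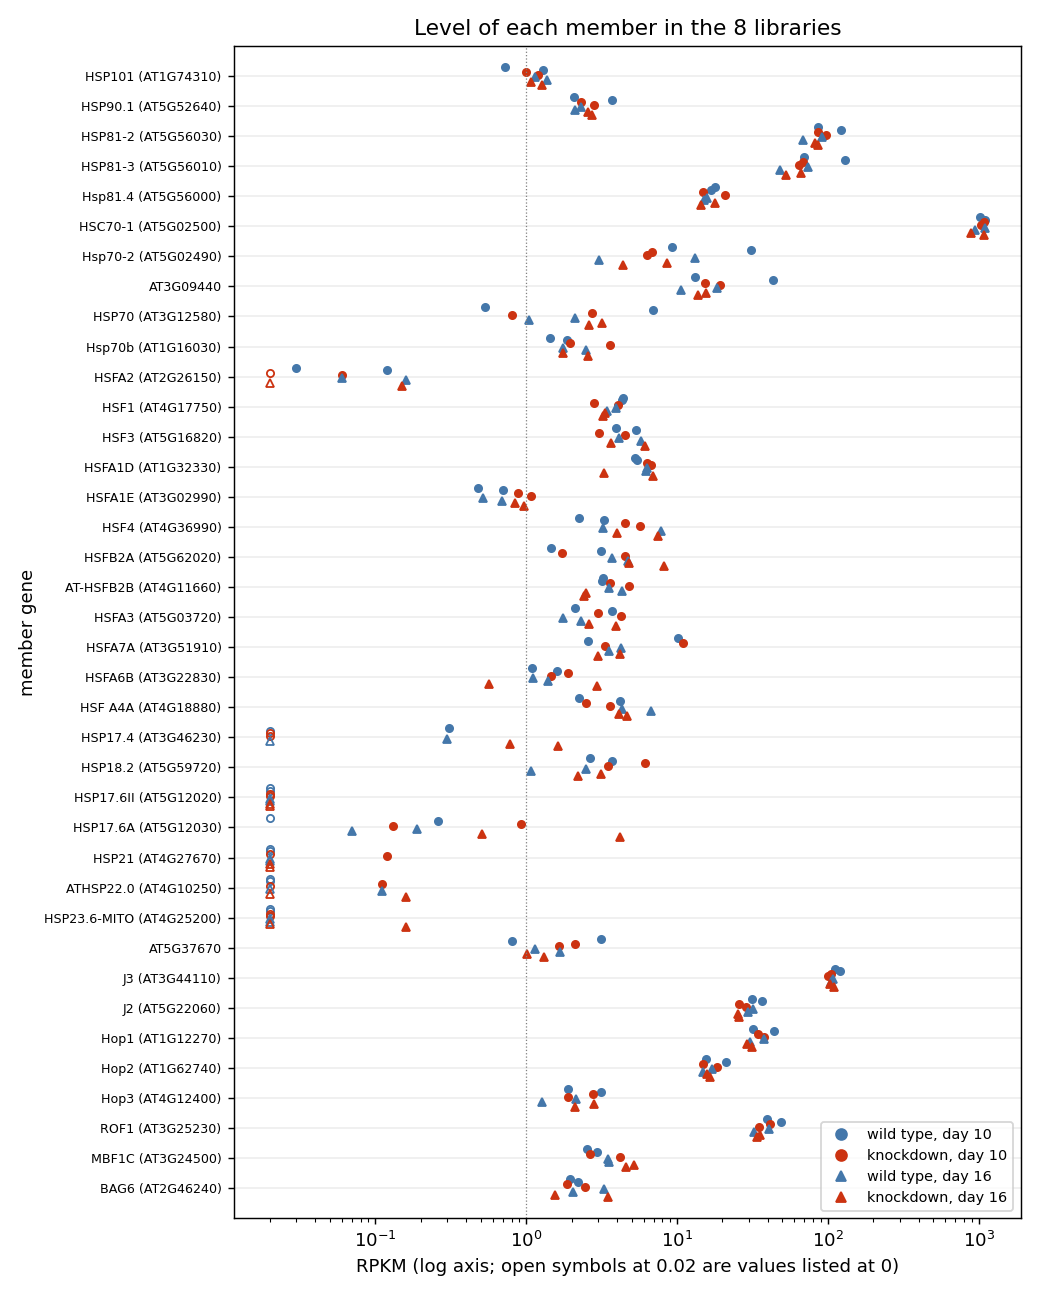
Level of each of the 38 members in the 8 libraries, grouped by role, in RPKM on a log axis, with colours for genotype and symbol shapes for age. HSC70-1 stands between 890.1 and 1098 RPKM, and HSP17.6II is at 0 in all of them.

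No member passed the test between the genotypes. In the fit across all genes (limma on log2 of RPKM plus 1, Benjamini-Hochberg adjusted p under 0.05), 30 of the 38 members had at least 1 RPKM in 2 or more libraries and were tested. At day 10, 0 of 30 passed, where 13 of 17467 genes (0.0744%) did. At day 16, 0 of 30 passed, against 20 genes (0.115%), and for the mean of both ages 0 of 30, against 43 genes (0.246%). With background shares this low, a count of 0 among 30 is near the background. At an unadjusted p under 0.05 in limma the members numbered 0 at day 10, 0 at day 16 and 1, J2, for the mean. Of all genes tested, 6.66%, 6.37% and 12% had such a p, so these counts do not exceed the background. With voom on estimated reads, 0 members passed in each of these comparisons and 0, 1 and 1 had an unadjusted p under 0.05. At day 10, 15 members had a higher and 15 a lower fitted level in the knockdown, with a median log2 difference of -0.014 beside -0.016 for all genes tested. The split at day 16 was 15 higher and 15 lower, with a median of -0.005 beside -0.11 for all genes. After median-of-ratios scaling, which moved the median of all genes at day 16 to 0.008, it became 22 higher and 8 lower. Without replicate 2 of wild type at day 10, a library described with the HSP70 genes, the split at day 10 was 20 higher and 10 lower, and without replicate 1 of the same group it was 10 higher and 20 lower.

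The precision allows some bounds. The 95% interval of the mean genotype difference on the scale of RPKM plus 1 lay within 2-fold either way for 27 of the 30 tested members, as for 93.3% of all genes tested. The exceptions were HSP70, Hsp70-2 and HSFB2A. At day 10 alone and at day 16 alone this held for 20 of the 30, against 79.8% and 80.1% of all genes tested. For genes near or below 1 RPKM, 2-fold in RPKM plus 1 is a wider change in RPKM.

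**Figure D2:**
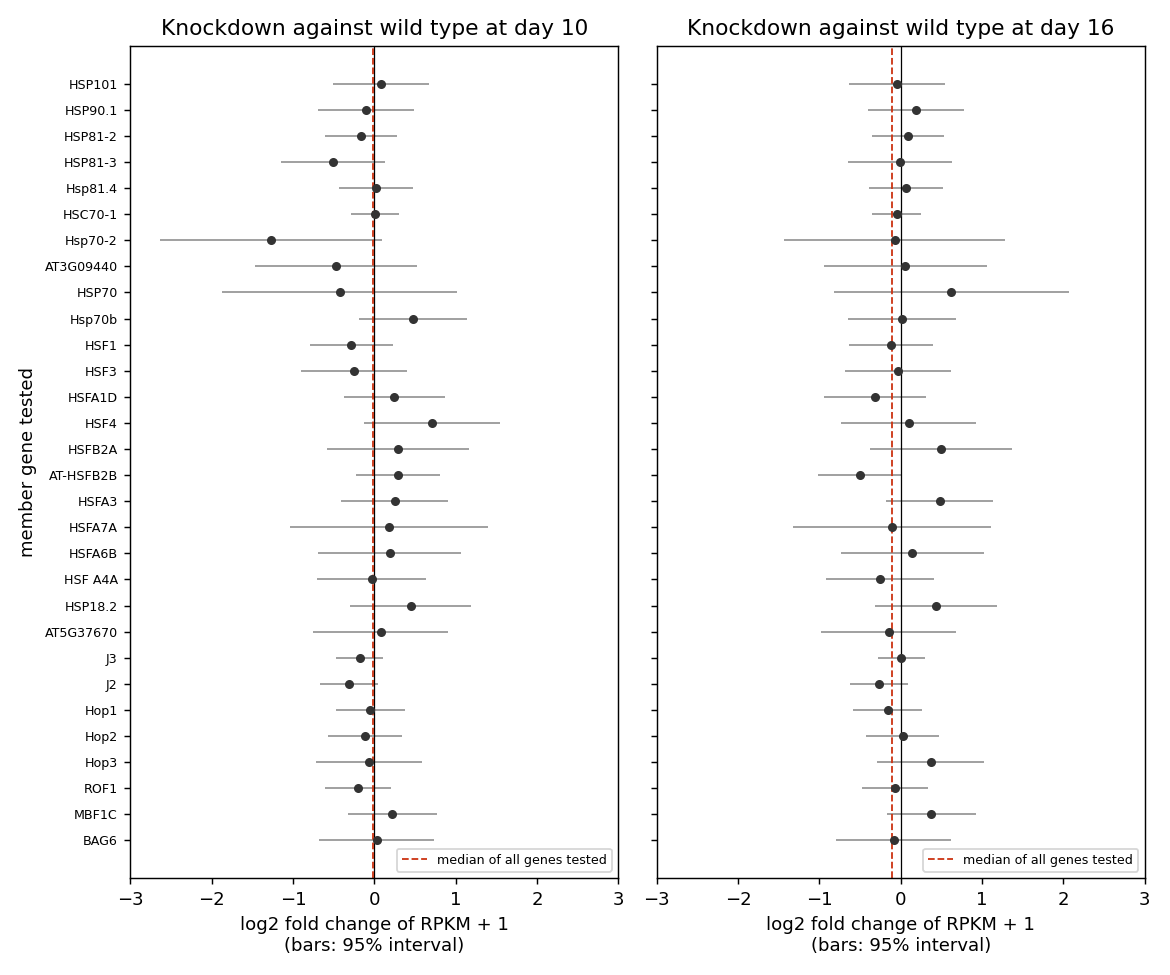
Log2 difference between knockdown and wild type for the 30 tested members at each age, with 95% intervals from limma (log2 of RPKM plus 1). The intervals are narrow for J3, J2 and HSC70-1 and wide for Hsp70-2 and HSP70, and none passed the adjusted test.

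Among the heat shock factors, the class A1 genes that start the response had means between 0.77 RPKM for HSFA1E and 5.79 RPKM for HSFA1D. HSF1 (HSFA1A, AT4G17750) stood at 4.37 and 4.32 RPKM in day-10 wild type, 2.83 and 4.05 RPKM in day-10 knockdown, 3.95 and 3.42 RPKM in day-16 wild type and 3.34 and 3.24 RPKM in day-16 knockdown libraries. Both knockdown libraries were below both wild-type libraries at each age, and the mean log2 difference was -0.20 ± 0.163 (SE, adjusted p = 0.636, 95% interval -0.57 to 0.16). After scaling, the libraries still did not overlap at day 10 and overlapped at day 16. HSF3 (HSFA1B, AT5G16820) stood at 3.95 and 5.33 RPKM in day-10 wild type, 3.02 and 4.49 RPKM in day-10 knockdown, 4.15 and 5.74 RPKM in day-16 wild type and 3.64 and 6.12 RPKM in day-16 knockdown libraries. HSFA1D, which shares their role, stood at 5.24 and 5.42 RPKM in day-10 wild type, 6.28 and 6.75 RPKM in day-10 knockdown, 6.28 and 6.19 RPKM in day-16 wild type and 3.28 and 6.88 RPKM in day-16 knockdown libraries. The groups overlapped for HSF3 at both ages, and HSFA1D was above wild type in both knockdown libraries at day 10 only. The fourth gene of the class, HSFA1E, stood at 0.48 and 0.7 RPKM in day-10 wild type, 0.88 and 1.08 RPKM in day-10 knockdown, 0.52 and 0.69 RPKM in day-16 wild type and 0.84 and 0.97 RPKM in day-16 knockdown libraries. It was the one member with all 4 knockdown libraries above all 4 wild-type libraries, an order shown by 1.25% of all loci, and so it was after median-of-ratios scaling, where 2.59% of loci showed it. HSFA1E was not tested in the filtered fit. In a fit without the filter, its mean log2 difference was 0.28 ± 0.104 (SE, limma, adjusted p = 0.401), and its estimated reads ranged from 16 to 36 per library.

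HSFs of class B lack an activation domain and are known as repressors of the heat response. HSF4 (HSFB1, AT4G36990) stood at 2.24 and 3.28 RPKM in day-10 wild type, 4.55 and 5.67 RPKM in day-10 knockdown, 3.22 and 7.8 RPKM in day-16 wild type and 4.03 and 7.44 RPKM in day-16 knockdown libraries. The knockdown libraries were higher at day 10, with a log2 difference of 0.71 ± 0.372 (SE, adjusted p = 0.754, 95% interval -0.12 to 1.54), and overlapped wild type at day 16. HSFB2A (AT5G62020) stood at 1.45 and 3.15 RPKM in day-10 wild type, 1.74 and 4.54 RPKM in day-10 knockdown, 3.69 and 4.71 RPKM in day-16 wild type and 4.79 and 8.23 RPKM in day-16 knockdown libraries. At day 16 both of its knockdown libraries were above wild type, and the log2 difference was 0.50 ± 0.391 (SE, adjusted p = 0.847, 95% interval -0.38 to 1.37). AT-HSFB2B (AT4G11660) stood at 3.24 and 3.2 RPKM in day-10 wild type, 3.58 and 4.79 RPKM in day-10 knockdown, 3.53 and 4.29 RPKM in day-16 wild type and 2.51 and 2.4 RPKM in day-16 knockdown libraries. Its knockdown libraries lay above wild type at day 10 and below it at day 16, which 1.38% of all loci showed, and 0.947% after scaling, again with AT-HSFB2B as the 1 member. The difference between the genotype effects of the ages was -0.79 ± 0.326 (SE, adjusted p = 1.00, 95% interval -1.52 to -0.061) on the log2 scale in limma, with an unadjusted p of 0.036. In that interaction 0 of 30 members and 0 of 17467 genes (0%) passed, 288 genes had an unadjusted p under 0.05, and voom called 0 genes. AT-HSFB2B overlaps its neighbour on the opposite strand, and no source states whether strand was used in counting.

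The remaining class A genes are induced downstream of the A1 factors or act in other stresses. HSFA3, a factor downstream of the drought factor DREB2A, stood at 2.12 and 3.72 RPKM in day-10 wild type, 2.98 and 4.23 RPKM in day-10 knockdown, 1.76 and 2.32 RPKM in day-16 wild type and 2.6 and 3.94 RPKM in day-16 knockdown libraries. Its knockdown libraries were both above wild type at day 16 and overlapped it at day 10, and the mean log2 difference was 0.36 ± 0.209 (SE, adjusted p = 0.509, 95% interval -0.10 to 0.83). HSFA7A (AT3G51910) stood at 10.2 and 2.58 RPKM in day-10 wild type, 10.96 and 3.34 RPKM in day-10 knockdown, 4.28 and 3.56 RPKM in day-16 wild type and 4.18 and 2.99 RPKM in day-16 knockdown libraries. At day 10 the ratio of replicate 2 to replicate 1 was 0.252 in wild type and 0.305 in the knockdown. The spread between replicates at that age was larger than the difference between the genotype means. HSF A4A ranged from 2.24 to 6.74 RPKM and HSFA6B from 0.57 to 2.93 RPKM, with overlapping genotypes at both ages. HSFA2, a main amplifier of the response after heat, stayed at 0 to 5 estimated reads per library.

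The HSP90 genes carried most of their level in constitutive forms. HSP81-2 (AT5G56030) stood at 86.3 and 122 RPKM in day-10 wild type, 86.7 and 96.6 RPKM in day-10 knockdown, 91.5 and 68.6 RPKM in day-16 wild type and 82.2 and 86.4 RPKM in day-16 knockdown libraries. Its mean log2 difference between genotypes was -0.038 ± 0.139 (SE, adjusted p = 0.928, 95% interval -0.35 to 0.27), and after scaling it was 0.043. HSP81-3 (AT5G56010) stood at 70.02 and 130.4 RPKM in day-10 wild type, 68.8 and 64.9 RPKM in day-10 knockdown, 73.96 and 48.3 RPKM in day-16 wild type and 66.8 and 52.5 RPKM in day-16 knockdown libraries. Its highest value, in replicate 2 of wild type at day 10, was 1.86 times that of replicate 1, and the log2 difference at that age was -0.51 ± 0.287 (SE, adjusted p = 0.76, 95% interval -1.15 to 0.13). It became -0.067 without that library and -0.96 without replicate 1 of the same group. Hsp81.4 (AT5G56000) stood at 17.8 and 16.7 RPKM in day-10 wild type, 14.8 and 20.8 RPKM in day-10 knockdown, 15.7 and 15.1 RPKM in day-16 wild type and 17.98 and 14.5 RPKM in day-16 knockdown libraries, with overlapping genotypes at both ages. These 3 genes lie within positions 22677338 to 22689671 of chromosome 5 (TAIR10.1), with AT5G56020 between HSP81-3 and HSP81-2. HSP81-3 shares 95.4% of its coding bases with Hsp81.4 and 91.9% with HSP81-2, and 18 to 23.9% of the 50-base stretches in their transcripts occur in another locus. No source states how reads of such stretches were assigned, so the split among the 3 is uncertain. Their summed level, which also depends on the assignment where lengths differ or shared reads were dropped, was 174 and 269 RPKM in day-10 wild type, 170.3 and 182 RPKM in day-10 knockdown, 181 and 132 RPKM in day-16 wild type and 167 and 153 RPKM in day-16 knockdown libraries. The sums of the genotypes overlapped at both ages. Together HSP81-2 and HSP81-3 gave 87.2 to 92.5% of the summed HSP90 level.

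The heat-induced relatives were much lower. HSP90.1 (AT5G52640) stood at 2.09 and 3.7 RPKM in day-10 wild type, 2.32 and 2.8 RPKM in day-10 knockdown, 2.3 and 2.1 RPKM in day-16 wild type and 2.58 and 2.72 RPKM in day-16 knockdown libraries. At day 16 both knockdown libraries were above both wild-type libraries, a difference of 0.19 ± 0.264 (SE, adjusted p = 0.903, 95% interval -0.40 to 0.78) on the log2 scale. HSP101, which pulls proteins out of aggregates after heat, stood at 0.72 and 1.29 RPKM in day-10 wild type, 1. and 1.2 RPKM in day-10 knockdown, 1.14 and 1.37 RPKM in day-16 wild type and 1.08 and 1.28 RPKM in day-16 knockdown libraries. All 8 values lay between 0.72 and 1.37 RPKM and the genotypes overlapped at both ages.

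One HSP70 gene dominated the family. HSC70-1 (AT5G02500) stood at 1018 and 1098 RPKM in day-10 wild type, 1080 and 1042 RPKM in day-10 knockdown, 1095 and 953 RPKM in day-16 wild type and 890.1 and 1089 RPKM in day-16 knockdown libraries. It made up 92.9 to 98.2% of the summed level of the 5 HSP70 members, and its mean log2 difference between genotypes was -0.024 ± 0.0934 (SE, adjusted p = 0.934, 95% interval -0.23 to 0.19). Scaling turned that value to 0.058. Its neighbour on chromosome 5, Hsp70-2 (positions 550035 to 552827 beside 553745 to 556623), stood at 9.33 and 31.1 RPKM in day-10 wild type, 6.79 and 6.28 RPKM in day-10 knockdown, 13.1 and 3.04 RPKM in day-16 wild type and 8.54 and 4.39 RPKM in day-16 knockdown libraries. Both knockdown libraries at day 10 were below wild type, but the wild-type libraries differed from each other by 3.33-fold. The log2 difference was -1.27 ± 0.609 (SE, adjusted p = 0.752, 95% interval -2.63 to 0.089). Leaving out the higher wild-type library (replicate 2) gave -0.46, and leaving out the lower gave -2.09. The authors' deposited table lists Hsp70-2 among the 331 loci lower in the knockdown at day 10, which are 1.2% of all loci, with a fold of -2.99 and a p-value of 0.00187. HSC70-1 and Hsp70-2 share 86.9% of their coding bases and no 50-base stretch with any other locus.

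AT3G09440, an HSP70 gene, stood at 13.1 and 43.5 RPKM in day-10 wild type, 15.2 and 19.2 RPKM in day-10 knockdown, 18.5 and 10.7 RPKM in day-16 wild type and 15.6 and 13.8 RPKM in day-16 knockdown libraries. Its log2 difference at day 10 was -0.47 ± 0.448 (SE, adjusted p = 0.846), and 0.36 without replicate 2 of wild type. HSP70, the heat-induced cytosolic form, stood at 0.53 and 6.93 RPKM in day-10 wild type, 2.73 and 0.8 RPKM in day-10 knockdown, 2.12 and 1.04 RPKM in day-16 wild type and 3.16 and 2.62 RPKM in day-16 knockdown libraries. At day 10 its log2 difference of -0.43 ± 0.645 (SE, adjusted p = 0.914) likewise became 0.76 without that library, and at day 16, where both knockdown libraries were above wild type, it was 0.62 ± 0.645 (SE, adjusted p = 0.874). Hsp70b, another inducible form, stood at 1.44 and 1.86 RPKM in day-10 wild type, 1.95 and 3.57 RPKM in day-10 knockdown, 1.75 and 2.51 RPKM in day-16 wild type and 1.76 and 2.57 RPKM in day-16 knockdown libraries. Its knockdown libraries at day 10 were both above wild type, and at day 16 the genotypes overlapped.

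Replicate 2 of wild type at day 10 stood apart for the chaperones. It held the highest value of 13 of the 30 tested members, while it held the highest value of 17.4% of all tested genes. The 13 were HSP90.1, HSP81-2, HSP81-3, HSC70-1, Hsp70-2, AT3G09440, HSP70, J3, J2, Hop1, Hop2, Hop3 and ROF1, and none was a factor or a small heat shock protein gene. Relative to replicate 1 it was 13.1 times as high for HSP70, 3.33 times for Hsp70-2 and 3.32 times for AT3G09440, whose elements are printed above, and 1.08 times for HSC70-1, which carries a site of the same form. The element stands before the start codon in 6 of these 13 genes, and 10 of the 30 tested members carry it. The other 7 come from the 20 tested members without it. The HSP90, HSP70 and ClpB genes of organelles and the endoplasmic reticulum (12 genes) also summed highest in this library, at 1038 RPKM, against 692 to 917 RPKM in the others. Touch and rapid-stress markers (8 genes, none at 0 everywhere) summed to 119 and 199 RPKM in wild type at day 10, within 119 to 248 RPKM over all libraries. Of these markers TCH4 was highest in replicate 2 of wild type at day 10, at 98.6 RPKM against 31.02 to 48.97 RPKM in the other libraries, and so was TCH2, at 32.7 RPKM against 12.1 to 26.7 RPKM. The other markers, TCH3, RHL41, STZ, WRKY40, ERF5 and AT4G29780, were not highest there. In that library they stood at 55.67, 0.23, 2.72, 1.66, 1.86 and 5.42 RPKM. Their highest values, in other libraries, were 146.62, 4.94, 15.86, 15.46, 13.94 and 16.7 RPKM. Whether handling played a part in the chaperone values was not tested. Replicate 1 of the same group held the lowest value of 8 of the 30 members, against 11.4% of all tested genes, and HSP70 at 0.53 RPKM was one of them. Replicate 2 of wild type at day 16 likewise held the lowest value of 8 members, against 5.03% of all tested genes.

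**Figure D3:**
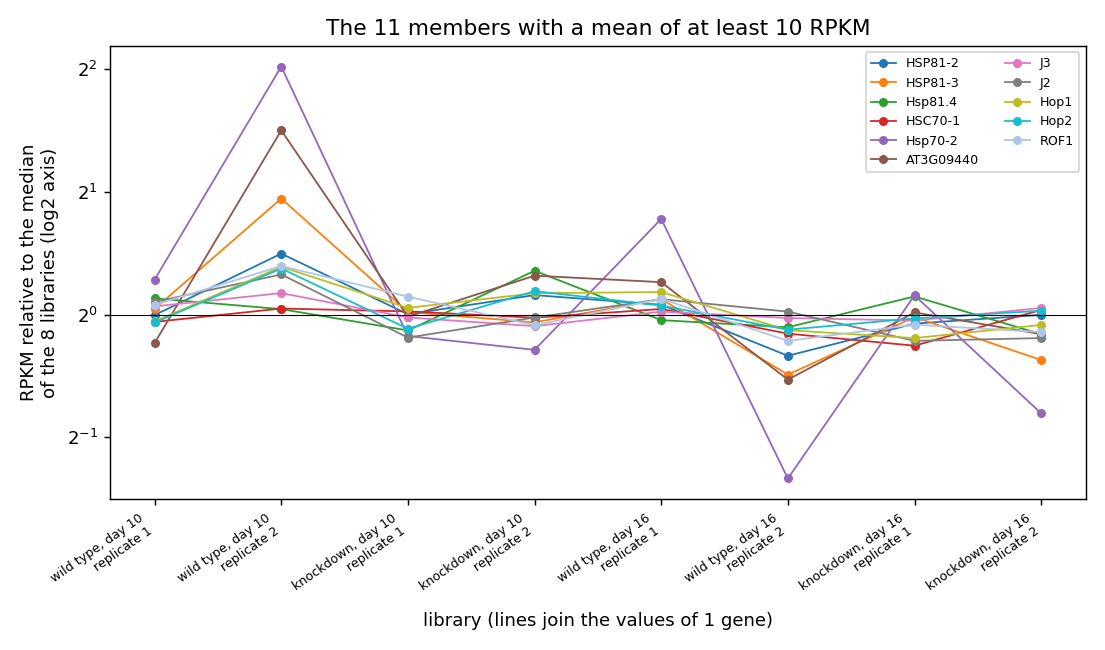
Values of the 11 members that average 10 RPKM or more, in each library, divided by the median of that gene over the 8 libraries, on a log2 axis. Hsp70-2, AT3G09440 and HSP81-3 peak in replicate 2 of wild type at day 10 and dip in replicate 2 of wild type at day 16, while HSC70-1 and J3 stay close to their medians.

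The J-protein genes varied little between libraries. J3 (AT3G44110) stood at 111 and 120.1 RPKM in day-10 wild type, 105 and 99.7 RPKM in day-10 knockdown, 108 and 104 RPKM in day-16 wild type and 103 and 110.4 RPKM in day-16 knockdown libraries. At day 10 both knockdown libraries were below both wild-type libraries, by a log2 difference of -0.18 ± 0.13 (SE, adjusted p = 0.792, 95% interval -0.47 to 0.11). At day 16 the genotypes overlapped and the difference was 0.0044 ± 0.13 (SE, adjusted p = 0.996, 95% interval -0.29 to 0.29). After median-of-ratios scaling, J3 did not overlap at day 16, with 116.2 and 101.9 in the knockdown and 100.5 and 96.3 in wild type. It was then the 1 member lower at day 10 and higher at day 16 in the knockdown, an order of 0.991% of all loci. J2, whose coding sequence is 84.5% identical to that of J3, stood at 31.4 and 36.7 RPKM in day-10 wild type, 25.7 and 28.8 RPKM in day-10 knockdown, 31.9 and 29.8 RPKM in day-16 wild type and 25.2 and 25.6 RPKM in day-16 knockdown libraries. It was the one member with all 4 knockdown libraries below all 4 wild-type libraries, an order that 3.42% of all loci showed. After scaling, 0 members and 2.71% of loci showed it. The mean log2 difference of J2 was -0.29 ± 0.114 (SE, adjusted p = 0.37, 95% interval -0.54 to -0.034), with an unadjusted p of 0.0302, the smallest of the 30 members. In that limma comparison 12% of all genes tested had an unadjusted p under 0.05. J3 was 3.27 to 3.55 times as high as J2 in the wild-type libraries and 3.46 to 4.30 times as high in the knockdown libraries. These ratios overlapped at day 10 and did not at day 16, where they were 3.39 and 3.5 in wild type and 4.07 and 4.3 in the knockdown, with no test of the ratio run. J2 overlaps its neighbour on the opposite strand.

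The HOP genes and ROF1 kept similar levels in all groups. Hop1 (AT1G12270) stood at 32.1 and 43.7 RPKM in day-10 wild type, 34.7 and 37.7 RPKM in day-10 knockdown, 37.9 and 30.6 RPKM in day-16 wild type and 29.2 and 31.5 RPKM in day-16 knockdown libraries. Hop2 (AT1G62740) stood at 15.5 and 21.04 RPKM in day-10 wild type, 14.98 and 18.5 RPKM in day-10 knockdown, 17.1 and 14.9 RPKM in day-16 wild type and 15.9 and 16.6 RPKM in day-16 knockdown libraries. For both, the genotypes overlapped at day 10 and day 16, and together they gave 94.2 to 97.3% of the summed HOP level. Hop3, the heat-induced form, ranged from 1.28 to 3.12 RPKM. ROF1, an FKBP-type immunophilin that binds HSP90, stood at 39.5 and 49.2 RPKM in day-10 wild type, 41.4 and 35.2 RPKM in day-10 knockdown, 40.9 and 32.3 RPKM in day-16 wild type and 35.3 and 33.9 RPKM in day-16 knockdown libraries. Its genotypes overlapped at both ages, with a mean log2 difference of -0.14 ± 0.129 (SE, adjusted p = 0.694, 95% interval -0.42 to 0.15).

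The small heat shock proteins, which hold unfolding proteins in a soluble state, were low in all groups. HSP18.2 (AT5G59720) had the highest mean over the 8 libraries, though not the highest value in each of them. It stood at 2.66 and 3.69 RPKM in day-10 wild type, 6.13 and 3.48 RPKM in day-10 knockdown, 2.48 and 1.07 RPKM in day-16 wild type and 3.11 and 2.2 RPKM in day-16 knockdown libraries. The genotypes overlapped at day 10 and day 16, and the mean log2 difference was 0.44 ± 0.236 (SE, adjusted p = 0.481, 95% interval -0.086 to 0.97). AT5G37670 stood at 3.12 and 0.81 RPKM in day-10 wild type, 2.12 and 1.66 RPKM in day-10 knockdown, 1.15 and 1.67 RPKM in day-16 wild type and 1.01 and 1.32 RPKM in day-16 knockdown libraries, also with overlap at both ages. HSP17.4 (AT3G46230) stood at 0.31 and 0 RPKM in day-10 wild type, 0 and 0 RPKM in day-10 knockdown, 0.3 and 0 RPKM in day-16 wild type and 0.78 and 1.62 RPKM in day-16 knockdown libraries. Reads for it were estimated at 4 and 0 in wild type and 9 and 21 in the knockdown at day 16. HSP17.6A (AT5G12030) stood at 0 and 0.26 RPKM in day-10 wild type, 0.93 and 0.13 RPKM in day-10 knockdown, 0.19 and 0.07 RPKM in day-16 wild type and 0.51 and 4.18 RPKM in day-16 knockdown libraries. Its 7 and 67 estimated reads in the knockdown at day 16 compare with 3 and 1 in wild type, so most of the signal came from replicate 2. Without the filter on low values, the day-16 differences in log2 of RPKM plus 1 were 0.92 ± 0.222 (SE, limma, adjusted p = 0.519) for HSP17.4 and 1.31 ± 0.526 (SE, limma, adjusted p = 0.732) for HSP17.6A. Adding 1 shrinks differences at such low levels, so these values and the authors' linear fold that follows are on unlike scales. The authors' deposited table lists HSP17.6A among the 211 loci higher in the knockdown at day 16, which are 0.763% of all loci, with a fold of 17.61 and a p-value of 0.00105. No other member is in that table, and none is in the authors' deposited tables of 321 loci higher at day 10 (1.16% of all loci) and 213 loci lower at day 16 (0.77%). The copies HSP17.6A and HSP17.6II lie next to each other on chromosome 5 and share 86.1% of their coding bases, and HSP17.6II was at 0 throughout. ATHSP22.0, HSP21 and HSP23.6-MITO did not exceed 0.16 RPKM in any library.

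HSP17.4 and HSP17.6 proteins also accumulate in maturing seeds without heat, and seed maturation markers varied between the same libraries. The 8 markers summed to 0.25 and 0.32 RPKM in day-10 wild type, 53.5 and 0.93 RPKM in day-10 knockdown, 0 and 0.23 RPKM in day-16 wild type and 6.91 and 38.9 RPKM in day-16 knockdown libraries. SESA3 was at 0 in all 8 libraries. The oleosin gene OLEO1 was at 0 in all 4 wild-type libraries, while the knockdown held 7.38 and 0 RPKM at day 10 and 0.21 and 9.83 RPKM at day 16. In the 3 knockdown libraries with marker sums above 1 RPKM, HSP17.6A stood at 0.93, 0.51 and 4.18 RPKM, its 3 highest values. HSP17.4 was at 0 in the library with the highest marker sum. The part of seed-type RNA in the small heat shock protein values was not tested.

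**Figure D4:**
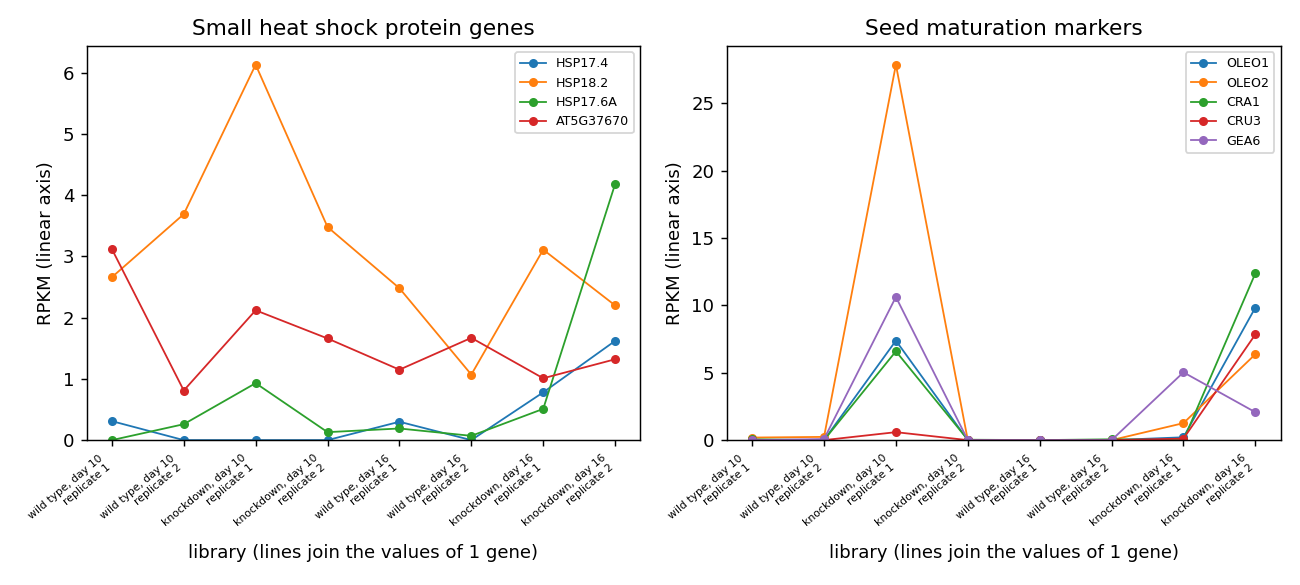
Level in each library of HSP17.4, HSP17.6A, HSP18.2 and AT5G37670, and of the seed maturation markers OLEO1, OLEO2, CRA1, CRU3 and GEA6, in RPKM. Replicate 2 of the knockdown at day 16 has the highest HSP17.6A value, 4.18 RPKM. The summed level of all 8 markers, 38.9 RPKM in that library, is not drawn. The other 4 small heat shock protein genes lie between 0 and 0.16 RPKM and are not drawn.

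MBF1C, a transcriptional coactivator of thermotolerance, stood at 2.54 and 2.94 RPKM in day-10 wild type, 2.63 and 4.21 RPKM in day-10 knockdown, 3.5 and 3.52 RPKM in day-16 wild type and 5.15 and 4.57 RPKM in day-16 knockdown libraries. At day 16 both knockdown libraries were above both wild-type libraries, and the log2 difference was 0.38 ± 0.245 (SE, adjusted p = 0.831, 95% interval -0.17 to 0.92). It rests in a locus that overlaps neighbours on the opposite strand. Besides AT-HSFB2B and J2, the members HSP101, AT3G09440, HSF3, HSFA3, HSP17.4, Hop2 and Hop3 also overlap a neighbour on the opposite strand. BAG6, a calmodulin-binding regulator of HSP70, stood at 1.94 and 2.22 RPKM in day-10 wild type, 1.86 and 2.44 RPKM in day-10 knockdown, 3.27 and 2.04 RPKM in day-16 wild type and 1.56 and 3.48 RPKM in day-16 knockdown libraries, with overlap at both ages.

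Counted over all 38 members, libraries of the genotypes did not overlap at day 10 for 5 members that were higher in the knockdown and 5 that were lower, where 14.1% and 15.3% of all loci showed those orders. Those shares of 13.2% each are near the background. At day 16 the counts were 8 higher (21.1%, against 6.75% of all loci) and 3 lower (7.89%, against 18.8%). The 8 were HSP90.1, HSP70, HSFA1E, HSFB2A, HSFA3, HSP17.4, HSP17.6A and MBF1C. After scaling, 9 members were higher, against 13.2% of all loci, and 1 was lower, against 13.6%. These are counts of order in 2 against 2 libraries, and none of these members passed the test.

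Between day 10 and day 16, 0 of 30 members passed in wild type, against 39 of 17467 genes (0.223%), and 0 of 30 in the knockdown, against 47 genes (0.269%). Limma gave an unadjusted p under 0.05 for 1 member in wild type, HSP81-3, and for 2 in the knockdown, AT-HSFB2B and HSFB2A, and voom for 2 and 2, with 0 passing the adjusted test. In limma 7.46% of all genes tested in wild type and 8.55% in the knockdown had such a p, so the members do not exceed the background. In wild type 10 members were higher and 20 lower at day 16, with a median log2 difference of -0.14 beside 0.10 for all genes tested. Without replicate 2 of wild type at day 10 the split was 17 higher and 13 lower, with a median of 0.043 beside 0.14 for all genes. Markers of other tissues and states also differed with age. The 7 leaf mesophyll markers had a median log2 difference of -0.41 in wild type and -0.13 in the knockdown, where 1 fell (RBCS2B, limma, adjusted p = 0.0388). The 8 touch and rapid-stress markers had medians of 1.69 and 0.26, and 1 of them, ERF5, rose in wild type (adjusted p = 0.0109) and in the knockdown (adjusted p = 0.0131). Their part in the members' values was not tested. In the knockdown the split was 11 higher and 19 lower, with a median of -0.099. HSP81-3 differed by -0.67 ± 0.287 (SE, adjusted p = 0.639, 95% interval -1.31 to -0.027) on the log2 scale in wild type, and leaving out each wild-type library in turn gave -0.22 and -1.11 without replicates 2 and 1 of day 10, and -0.37 and -0.97 without replicates 2 and 1 of day 16. HSFB2A was higher at day 16 without overlap in both genotypes, by 0.70 ± 0.391 (SE, adjusted p = 0.734) in wild type and 0.91 ± 0.391 (SE, adjusted p = 0.558) in the knockdown, and MBF1C and HSF A4A were ordered the same way, HSF A4A in wild type only before scaling. In wild type the HSFB2A value was 0.32 without replicate 1 of day 10 and 1.08 without replicate 2. In the knockdown it was 0.40 and 1.42 without replicates 1 and 2 of day 10, and 0.57 without replicate 2 of day 16. Libraries of the ages did not overlap in wild type for 5 members that were higher at day 16 (23% of all loci) and 4 that were lower (7.92%), and scaling raised the latter to 12, against 14.3% of all loci. In the knockdown 4 members were higher without overlap (12.3% of all loci) and 6 lower (12.7%), and 5 lower after scaling (13.6%). AT-HSFB2B was lower at day 16 in the knockdown, by a log2 difference of -0.58 ± 0.231 (SE, adjusted p = 0.516, 95% interval -1.09 to -0.061), and in wild type it was higher at day 16 without overlap before scaling.

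Genes that work with the members were read from 6 further lists of 56 loci (other HSFs, other small heat shock proteins, organelle and endoplasmic reticulum chaperones, other cytosolic HSP70 and HSP110, co-chaperones and regulators, and heat-responsive genes that are not chaperones), of which 46 were tested. In limma none rose and none fell in any of the 6 comparisons, and voom called none. An unadjusted p under 0.05 in limma was found for 4 at day 10, 4 at day 16, 6 for the mean genotype difference, 1 in the interaction, 0 for age in wild type and 3 for age in the knockdown. The shares of all genes tested with such a p were, in the same order, 6.66%, 6.37%, 12%, 1.65%, 7.46% and 8.55%. The smallest values for the mean genotype difference were those of the plastid HSP70 genes cpHsc70-1, with -0.35 ± 0.098 (SE, adjusted p = 0.252), and cpHsc70-2, with -0.44 ± 0.144 (SE, adjusted p = 0.3), and of the small heat shock protein gene AT2G19310, with 0.44 ± 0.131 (SE, adjusted p = 0.272). HSBP, which binds HSFs and ends their activity, differed by 0.32 ± 0.126 (SE, adjusted p = 0.695) at day 10. The plastid HSP90 gene CR88 differed by -0.38 ± 0.161 (SE, adjusted p = 0.764) at day 16, and AT5G47600, a small heat shock protein gene, by -0.63 ± 0.267 (SE, adjusted p = 0.728) at day 10, by 1.04 ± 0.377 (SE, unadjusted p = 0.0206, adjusted p = 1.0) in the interaction in limma and by 0.79 ± 0.267 (SE, adjusted p = 0.39) with age in the knockdown. With age, the galactinol synthase gene GolS1, a known target of HSFs, differed by 1.15 ± 0.303 (SE, adjusted p = 0.242) in the knockdown, and HSFC1 by 1.28 ± 0.579 (SE, adjusted p = 0.665) in wild type. The ER chaperone gene BIP1 differed by 0.55 ± 0.279 (SE, adjusted p = 1.0) and BIP2 by 0.54 ± 0.319 (SE, adjusted p = 1.0) in the interaction, and AT5G51440 by -0.76 ± 0.349 (SE, adjusted p = 0.67) with age in wild type.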

How the data were processed

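RNA-seq values were deposited by the authors as RPKM per locus and library, per the file headers (the table's own name says RPM). The submitters' processing notes name the build TAIR10, while no source names the aligner, the counting or the use of strand. Lists of differing loci were deposited too, with a p-value and a linear fold, a ratio where higher and a score with a minus sign where lower, whose test is not given. Every per-sample column was assigned to a group from the labels. Values were tested as log2(RPKM + 1) with limma 3.58.1 in R 4.3.3 (trend, 1 coefficient per group, two-sided, threshold 0.05) over 17467 loci with at least 1 RPKM in 2 or more of 8 libraries, with 4 residual degrees of freedom. The script was tested on simulated data. Reads were estimated from RPKM, exon length and depth: 98.5 to 100% of low values of single-transcript loci came within 0.1 of a whole read. Symbols, positions and sequences came from RefSeq TAIR10.1, where 27444 of 27655 loci matched. Coding-sequence identity was computed in place of protein identity. All 38 members are named, with PECT1, the markers, and from the further lists the 3 loci with the smallest p in each contrast. Members and lists were chosen with earlier results of these data known. Alternatives were pseudocounts of 0.25 and 4, no filter, median-of-ratios scaling, a replicate block, leaving out each library, voom, and for the element 1 mismatch and a window before the start codon.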

Additional observations from a re-analysis of the deposited data

Results flagged for a closer look

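AT-HSFB2B was singled out because its genotype difference had opposite signs at the ages. Both knockdown libraries lay above both wild-type libraries at day 10 and below them at day 16. The log2 differences were 0.29 ± 0.231 (SE, adjusted p = 0.814) at day 10 and -0.50 ± 0.231 (SE, adjusted p = 0.793) at day 16 in limma. The change of the difference was -0.79, with an unadjusted p of 0.036 from the interaction test in limma and an adjusted p of 1.00. Leaving out 1 knockdown library at day 10 gave 0.118 without replicate 2 and 0.456 without replicate 1 for that age. Of 38 members it was the only one in this order, which 1.38% of all loci shared.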

How the results depend on the processing

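Of the 378 combinations of 27 log2 differences and 14 alternatives, 365 kept their sign, 13 turned sign and 0 changed a call, and the smallest adjusted p of a member was 0.174. With median-of-ratios scaling the mean genotype differences became 0.058 for HSC70-1 and 0.043 for HSP81-2. Leaving out 1 library at a time gave -0.046 to 0.055 for J3 at day 16, -0.096 to 0.049 for HSC70-1 and -0.161 to 0.086 for HSP81-2 as mean differences, and at day 10 -1.30 to 0.358 for AT3G09440 and -1.614 to 0.760 for HSP70. The cause of these turns was not tested. Other ranges were 0.215 to 0.513 for HSFA3, 0.254 to 0.628 for HSP18.2 and -0.303 to -0.103 for HSF1 as mean differences. Counts over all genes moved more. A replicate block gave 20 genes at day 10, 68 for the mean, 89 for age in wild type and 109 for age in the knockdown, with 0 members. Correlations of the replicate differences were 0.185 to 0.329 for 4 of the 6 pairs of groups and 0.0918 and -0.239 for the pairs of day-10 wild type with the knockdown and wild type at day 16, so the numbers were not read as pairs. HSFB2A, HSFA3, MBF1C, Hsp70b and HSFA1E were higher in the knockdown in every same-numbered comparison, and J2 and HSF1 were lower in every one. The share of all loci with these orders was not counted, so they cannot be set apart from the background. For Hsp70b at day 16 the knockdown held 1.76 and 2.57 RPKM and wild type 1.75 and 2.51 RPKM. With the block the mean differences of HSFB2A and HSFA3 had adjusted p of 0.34 and 0.347 in limma. Voom, chosen after seeing the data, gave 7, 8, 19, 13 and 26 genes for day 10, day 16, the mean, age in wild type and age in the knockdown. No filter gave 11 at day 16, 24 for the mean, 12 and 15 for age, and scaling 18 for age in wild type. Leaving out 1 library gave 7 to 26 genes at day 10, 11 to 19 at day 16, 18 to 48 for the mean, 7 to 54 and 16 to 53 for age, and 0 to 0 for the interaction, where a library alone in its group is assumed to vary like the others. The element count of 3 members became 9 (23.7%, against 8.4% of all loci) with 1 mismatch and 13 in the window before the start codon, which was also chosen after seeing the data. With 2 libraries per group, low genes such as HSFA2 or HSP17.4 rest on few reads.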

Other observations

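A small heat shock protein gene outside the 38, AT4G21870, chosen after its values were seen, stood at 135 and 38.1 RPKM in day-10 wild type, 214 and 83.2 RPKM in day-10 knockdown, 39.8 and 15.8 RPKM in day-16 wild type and 94.9 and 16.8 RPKM in day-16 knockdown libraries. Replicate 1 was above replicate 2 in all 4 groups, as for HSFA7A, with ratios of replicate 2 to replicate 1 of 0.282, 0.388, 0.398 and 0.177. It was higher than every small heat shock protein gene of the 38 in each library.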
